A study of Homo sapiens with 8 samples.

Results

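The comparison described here set 4 AcMor culture tags against 4 Vehic culture tags of the arrangement 2DCocu, in neural cultures grown from H1, a widely used line of human embryonic stem cells. RNA of single cells was read after split-pool barcoding, in which fixed cells pass through rounds of splitting and pooling until each carries its own combination of barcodes. The members were all cells whose names began with one of the 8 tags, 6919 of the 43693 cells in the deposited matrix and 8 of its 46 tags. AcMor tags held 496, 753, 502 and 1378 cells (3129 in all), and Vehic tags held 1160, 1104, 753 and 773 (3790 in all).

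The tag names are not defined in the labels. AcMor fits morphine, which the series text names beside cocaine and dopamine, 2DCocu fits a 2-D co-culture, and Vehic fits an untreated or vehicle control. Dose, length of exposure and the cells combined in a co-culture are absent from the labels read here, nor is it stated whether the 4 numbers of a group were separate cultures. All cultures came from 1 line, all cells passed through 1 barcoded pool, and n below is the number of tags, so p-values measure the spread between these tags, which may be technical.

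Morphine acts mainly on the mu opioid receptor, encoded by OPRM1. This receptor couples to inhibitory G proteins of the Gi/o class, which lower cyclic AMP, open inwardly rectifying potassium channels and close presynaptic calcium channels. TBR1, NEUROD2 and NEUROD6, which recur below, are transcription factors of newly formed glutamatergic neurons of the cerebral cortex.

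The total counts were 5759439, 13664270, 7326439 and 20104217 in AcMor 1 to 4 and 16313041, 11428159, 10430346 and 8594011 in Vehic 1 to 4. The median count per cell lay between 9422 and 14301 in the AcMor tags and between 7994 and 10789 in the Vehic tags. The median mitochondrial share of counts was 2.78%, 3.48%, 2.80% and 2.68% in AcMor and 1.57%, 2.17%, 1.11% and 0.968% in Vehic, so the groups did not overlap. Over the 8 tags there were 6592 distinct barcode combinations, 311 of them present in more than 1 sublibrary and 0 repeated within one.

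All counts of a tag were added up over its cells, so that fewer cells of a type and less RNA per cell cannot be told apart in this first comparison. Of 21032 genes tested, 205 (0.975%) passed an adjusted p of 0.05 in edgeR's quasi-likelihood test with Benjamini-Hochberg adjustment, 144 higher (0.685%) and 61 lower (0.29%) in AcMor. In 200 of them the tag values of the groups did not overlap, as they also did not in 1958 (9.31%) of all genes tested. The count depended on single tags: it was 27, 37, 35 and 71 without AcMor 1, 2, 3 and 4, and 75, 165, 41 and 283 without Vehic 1, 2, 3 and 4. Without Vehic 2 the split turned to 66 higher and 99 lower, and scaling by library size alone gave 63 higher and 87 lower among 150. Of 82 called genes selected for a closer look, 15, 21, 24 and 33 were still called without AcMor 1, 2, 3 and 4. Without Vehic 1, 2, 3 and 4 there were 39, 54, 23 and 60. All 82 had the same sign of log2 fold change in these 8 fits. Where groups do not overlap, leaving out 1 tag can hardly turn the sign, so nothing is read from this. Without Vehic 3 and 4 together, the tags with the lowest mitochondrial shares, 6 genes were called, 2 of them among the 82. No other pair of tags was left out, so this drop cannot be set against that of any other pair.

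Transcription factors of glutamatergic cortical neurons were among the largest rises. TBR1 (chromosome 2, 161416094 to 161425870) stood at 34.5, 30.9, 38.5 and 37.6 CPM (counts scaled to the same total in every tag) in the AcMor tags and at 14, 14.1, 8.20 and 11.1 CPM in the Vehic tags. The lowest AcMor tag was above the highest Vehic tag, and the values rested on 206, 424, 289 and 674 counts in AcMor and on 241, 168, 82 and 96 in Vehic. TBR1 was called without each of the 8 tags in turn, and missed the threshold without Vehic 3 and 4 together (log2 fold change 1.32, edgeR adjusted p = 0.0548). NEUROD6 (chromosome 7, 31337461 to 31340894), a basic helix-loop-helix factor, stood at 17.1, 16.2, 14.1 and 14 CPM in AcMor and at 6.39, 6.73, 2.30 and 6.37 CPM in Vehic. The groups did not overlap and Vehic 3 was well below the other Vehic tags, and the log2 fold change was 1.48 (SE 0.263, adjusted p = 0.0178 by edgeR). NEUROD6 lost its call without AcMor 1 (adjusted p = 0.0626) and without AcMor 2 (adjusted p = 0.055). Its relative NEUROD2 (chromosome 17, 39603536 to 39609777) stood at 13.8, 9.83, 6.66 and 11.3 CPM in AcMor and at 5.40, 4.54, 3.40 and 3.36 CPM in Vehic. AcMor 3 was the AcMor tag nearest to Vehic, and the log2 fold change was 1.28 (SE 0.264, adjusted p = 0.0353 by edgeR). NEUROD2 was not called without AcMor 1, 2 or 4 (adjusted p of 0.103, 0.0729 and 0.0773) or without Vehic 2 or 3 (0.0563 and 0.13).

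Of a list of 39 genes of cortical glutamatergic identity, 38 were tested, 8 rose and 0 fell, with a median log2 fold change of 0.37 against 0.01 over all genes tested, of which 0.685% were called higher and 0.29% lower. Beside the 3 factors above, EMX1 and LHX2, homeobox factors of the cortical progenitor zone, rose from 7.26 ± 1.35 to 13.1 ± 1.41 CPM and from 24.9 ± 4.31 to 38.2 ± 4.76 CPM (SD, n = 4 tags). ZBTB18, a zinc finger repressor needed for cortical neuron formation, rose from 38.0 ± 6.44 to 66.9 ± 9.61 CPM, with a log2 fold change of 0.82 (SE 0.139, adjusted p = 0.0159 by edgeR). NRN1, a membrane-anchored protein that promotes neurite growth, rose from 6.65 ± 1.17 to 13.4 ± 2.02 CPM. SLA, an adaptor protein known from lymphocytes, rose from 7.02 ± 1.21 to 16.9 ± 3.26 CPM.

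The other large rises were mostly genes of neuronal adhesion, secretion and identity. L1CAM, an axonal adhesion molecule (chromosome X, 153861514 to 153886174), stood at 55.8, 57.8, 35.4 and 46.4 CPM in AcMor and at 23.8, 19.7, 16.2 and 10.4 CPM in Vehic, with a log2 fold change of 1.46 (SE 0.303, adjusted p = 0.042 by edgeR). VGF, the precursor of secreted neuropeptides (chromosome 7, 101162509 to 101165593), stood at 5.37, 3.42, 3.06 and 4.58 CPM in AcMor and at 1.57, 1.35, 2.40 and 0.579 CPM in Vehic, and its log2 fold change was 1.44 (SE 0.332, adjusted p = 0.048 by edgeR). The groups did not overlap in either gene. VGF lost its call without any of the 8 tags (adjusted p from 0.0652 without Vehic 3 to 0.135 without AcMor 1), and L1CAM lost it without every tag but Vehic 1 (from 0.054 without AcMor 3 to 0.152 without Vehic 3). PCDH8, a protocadherin, LHX1, a LIM homeobox factor, PROKR2, the prokineticin receptor, PRDM8, a transcriptional repressor of neurons, and AMER2, a regulator of WNT signalling, had log2 fold changes of 1.30, 1.24, 1.23, 1.22 and 1.21. The antisense transcripts PRDM8-AS1 (1.26) and EPHA5-AS1 (1.14) also passed, but whether strand was used in counting is not stated, so their reads cannot be told apart from those of PRDM8 and EPHA5. CCDC71L (log2 fold change 1.44) also rose, at 1.21 ± 0.319 CPM in AcMor and 0.469 ± 0.14 CPM in Vehic.

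**Figure D1:**
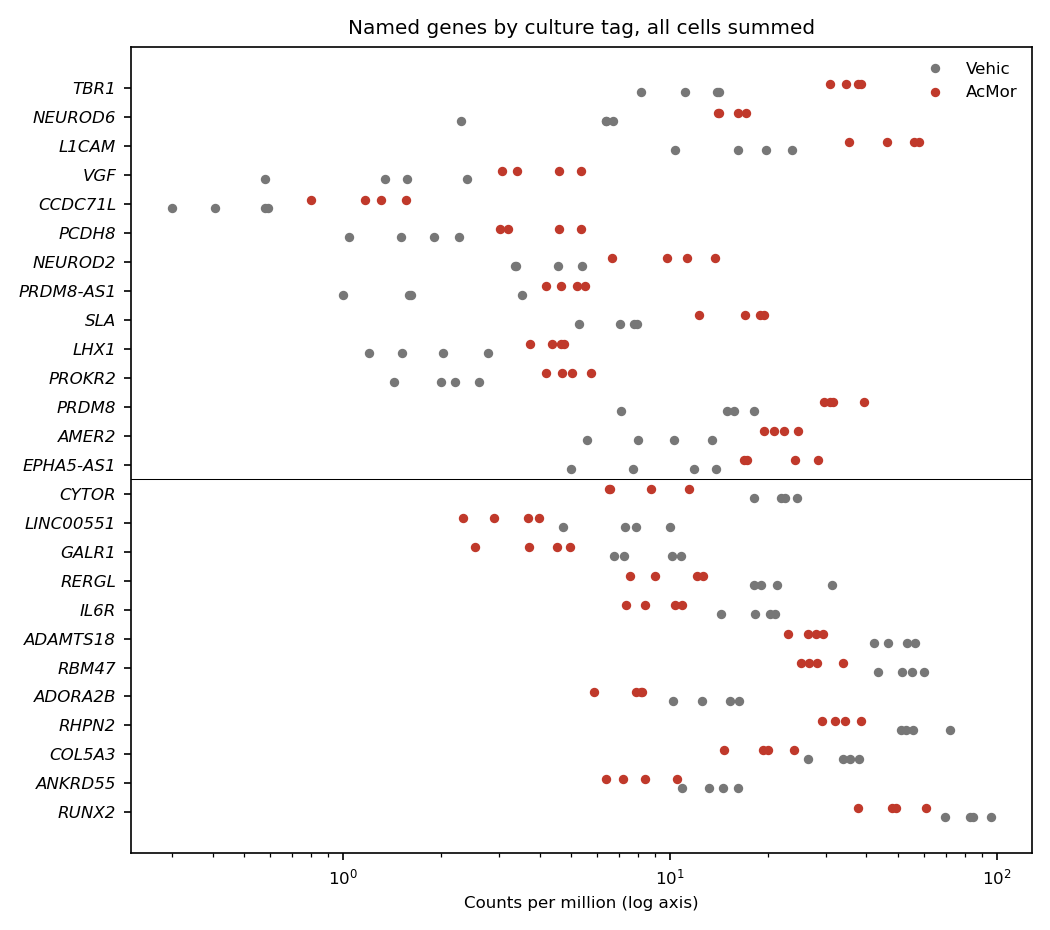
CPM on a log axis for genes among the 15 largest rises (above the line) and the 12 largest falls (below it), with 1 point per culture tag, 4 AcMor tags in red and 4 Vehic tags in grey. The rule that chose these genes asked for groups that do not overlap, so the gap in each row is a description, and TBR1 lies at 30.9 to 38.5 in AcMor and at 8.20 to 14.1 in Vehic.

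NEUROD factors bind E-boxes, short DNA motifs, and the 6 letters CAGATG, read on either strand, were looked up in the 250 bases upstream of each gene's start in RefSeq (GRCh38.p14). They occurred in 3342 of 27305 windows (12.24%), in 10 of 99 windows of genes called higher (10.1%) and in 7 of 51 of genes called lower (13.73%). The shares lay near that of all genes and nothing is drawn from a match. The windows of AMER2 (chr13:25172289-25172538, minus strand) and ZBTB18 (chr1:244048403-244048652, plus strand) are shown as called neuronal genes with the motif whose windows hold no GENCODE v29 exon on GRCh38. Capitals mark the motif, as CAGATG or its complement CATCTG, in 5′ to 3′ direction on the gene's strand.
AMER2: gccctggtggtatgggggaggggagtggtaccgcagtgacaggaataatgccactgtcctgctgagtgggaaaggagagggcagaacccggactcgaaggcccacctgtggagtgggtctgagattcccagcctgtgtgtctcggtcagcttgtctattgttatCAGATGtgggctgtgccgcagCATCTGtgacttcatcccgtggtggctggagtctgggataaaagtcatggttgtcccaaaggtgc
ZBTB18: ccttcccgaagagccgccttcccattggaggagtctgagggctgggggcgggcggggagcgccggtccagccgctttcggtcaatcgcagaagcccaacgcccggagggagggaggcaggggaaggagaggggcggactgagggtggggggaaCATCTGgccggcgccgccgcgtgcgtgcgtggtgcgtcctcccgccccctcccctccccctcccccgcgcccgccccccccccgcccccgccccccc

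In the lists of receptor, vesicle and channel genes that follow, the called members were all higher in AcMor. Of 25 glutamate receptor genes 2 rose and 0 fell (median log2 fold change 0.21), of 18 GABA and glycine receptor genes 2 rose and 0 fell (0.37), of 29 genes of the presynaptic vesicle cycle 2 rose and 0 fell (0.38), and of 48 voltage-gated channel genes 5 rose and 0 fell (0.26), where 0.685% of all genes were called higher. GRIA2, the AMPA receptor subunit that limits calcium entry, stood at 340, 283, 302 and 304 CPM in AcMor and at 156, 146, 94.6 and 176 CPM in Vehic. The lowest AcMor tag was far above the highest Vehic tag, the log2 fold change was 1.10 (SE 0.15, adjusted p = 0.00842 by edgeR), and GRIA2 was called without each tag in turn. CACNA1E, the pore of R-type calcium channels, was at 427 ± 35.2 CPM in AcMor and 239 ± 10.9 CPM in Vehic, and CACNA2D3, an auxiliary calcium channel subunit, was at 233 ± 13.5 against 140 ± 13.3 CPM. SCN2A and SCN3B, sodium channel subunits, KCNB2, a delayed rectifier, GRIK2, a kainate receptor, GABRB2, a GABA-A receptor subunit, and SYT4, a vesicle protein, had log2 fold changes from 0.64 (KCNB2) to 0.97 (SCN3B).

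Genes outside glutamatergic identity were also among the rises. Beside the 0.685% of all genes called higher, of 16 tested genes of GABAergic identity 2 rose and 0 fell: GAD2, which makes GABA, from 22.5 ± 6.18 to 37.5 ± 4.1 CPM, and PAX2, a factor of hindbrain and spinal inhibitory neurons, from 36.8 ± 6.84 to 63.5 ± 6.01 CPM. Of 38 axon guidance genes 3 rose (EPHA5, EPHB6 and SEMA3C) and NTN1, the secreted guidance cue netrin-1, fell from 474 ± 101 to 287 ± 52.2 CPM. Other genes, chosen after their values were seen, included DCX, a microtubule protein of young neurons, at 190 ± 9.17 CPM in AcMor against 113 ± 17.2 in Vehic, and SOX11, a factor of new neurons, at 108 ± 14.8 against 55.1 ± 4.18. CNR1, the cannabinoid receptor, which like the opioid receptors couples to Gi/o proteins, was at 79.1 ± 8.29 against 51.1 ± 5.80 CPM (log2 fold change 0.63 with an SE of 0.104, adjusted p = 0.0134 by edgeR) and was chosen in the same way.

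The host transcripts of neuronal microRNAs were among the called genes and were likewise chosen after their values were seen. MIR124-1HG and MIR124-2HG had log2 fold changes of 1.08 and 1.10, and MIR137HG (chromosome 1, 97933474 to 98049863, minus strand) stood at 116, 67.2, 97.4 and 80.4 CPM in AcMor and at 56.8, 53.3, 38.0 and 66.0 CPM in Vehic (log2 fold change 0.75 with an SE of 0.168, adjusted p = 0.0461 by edgeR). The lowest AcMor tag lay just above the highest Vehic tag. The mature microRNA was not measured by these polyA libraries. It is printed from RefSeq (GRCh38.p14) to show what the transcript carries, with the seed, bases 2 to 8, in capitals.
hsa-miR-137-3p: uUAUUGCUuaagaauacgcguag

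CYTOR, LINC00551 and GALR1 came first among the 12 largest falls. CYTOR, a long noncoding RNA (chromosome 2, 87454781 to 87636740), stood at 6.54, 6.55, 8.79 and 11.4 CPM in AcMor and at 18.1, 22.0, 24.5 and 22.5 CPM in Vehic. The groups were far apart and CYTOR was called without each tag in turn, but it has a near-identical copy in MIR4435-2HG and their reads may have been divided. MIR4435-2HG was lower as well, at 227 ± 15.7 CPM in AcMor against 323 ± 15.6 CPM in Vehic (log2 fold change -0.51). GALR1, the galanin receptor, which couples to Gi/o proteins (chromosome 18, 77250549 to 77277896), stood at 4.53, 3.71, 2.53 and 4.97 CPM in AcMor and at 6.74, 7.24, 10.8 and 10.2 CPM in Vehic (log2 fold change -1.11 with an SE of 0.244, adjusted p = 0.0425 by edgeR). Its groups did not overlap, and it kept its call without Vehic 2 and lost it without each of the other tags (adjusted p from 0.0505 to 0.145). IL6R, the interleukin 6 receptor, and ADORA2B, an adenosine receptor that raises cyclic AMP, fell by 0.96 and 0.83 on the log2 scale. RUNX2, a runt factor of mesenchymal lineages, stood at 49.1, 47.8, 37.6 and 60.9 CPM in AcMor and at 85.0, 69.3, 83.1 and 96.2 CPM in Vehic, again without overlap. LINC00551, RERGL, ADAMTS18, RBM47, RHPN2, COL5A3 and ANKRD55 made up the rest of the 12 largest falls, with log2 fold changes from -1.25 (LINC00551) to -0.77 (ANKRD55). ALDH1L1, the folate enzyme used as an astrocyte marker (chromosome 3, 126103562 to 126197994), was the 1 called gene of 32 in the list of radial glia and astrocytes, at 61.2 ± 14.7 against 102 ± 18.5 CPM. ME1, the cytosolic malic enzyme and the 1 called of 17 NRF2 targets, was at 64.4 ± 9.46 against 105 ± 12.2 CPM, and TCF7L2, an effector of WNT signalling and the 1 called of 35 WNT and Notch genes, was at 192 ± 32.5 against 295 ± 45.3 CPM. Over all genes 0.29% were called lower, so that 1 call in a list of this size is not read as a result about the list.

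Of 8 opioid receptor and peptide genes 6 were tested and 0 were called, which with 0.975% of all genes called is no result about so short a list, and PDYN and PNOC did not pass the filter on low counts. OPRM1 (chromosome 6, 154010496 to 154246867) stood at 3.86, 3.20, 2.93 and 3.74 CPM in AcMor and at 2.27, 4.12, 3.10 and 3.94 CPM in Vehic, with overlapping groups (log2 fold change 0.06 with an SE of 0.268, adjusted p = 0.952 by edgeR). The delta receptor OPRD1 was at 2.08 ± 0.377 against 2.59 ± 0.542 CPM, the kappa receptor OPRK1 at 2.39 ± 0.774 against 3.13 ± 0.769, and the nociceptin receptor OPRL1 at 1.15 ± 0.226 against 0.77 ± 0.60. At these levels a moderate change was not detectable, as the standard errors of their log2 fold changes were 0.257 (OPRD1), 0.295 (OPRK1) and 0.481 (OPRL1).

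Downstream of Gi/o proteins, 57 genes of cyclic AMP signalling were tested, 1 rose and 1 fell, with a median log2 fold change of 0.05. That is 2 of 57, where 0.975% of all genes were called. ADCY8, a calcium-stimulated adenylyl cyclase, rose from 64.3 ± 10.5 to 95.6 ± 13.3 CPM (log2 fold change 0.57). CREM, a transcription factor that answers cyclic AMP, stood at 52.5, 52.3, 51.8 and 51.9 CPM in AcMor and at 63.7, 66.0, 67.8 and 72.5 CPM in Vehic. The AcMor values were close together and below all Vehic values, and the log2 fold change was -0.37 (SE 0.0843, adjusted p = 0.0464 by edgeR), but CREM lost its call without any of the 8 tags, with adjusted p from 0.0563 to 0.137. Of 34 immediate early and activity genes 0 were called (median log2 fold change 0.11), and the same was true of 33 cell cycle genes (-0.05), 21 of the integrated stress response (0.15), 14 heat shock chaperones (0.08), 28 of hypoxia and glycolysis (0.11), 27 of cholesterol and fatty acid synthesis (0.05), 15 of the interferon response (-0.09) and 19 p53 targets (0.01).

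Cells were then grouped by clustering without the 205 called genes, and 10 categories with at least 1% of the cells were compared. Names ending in -like rest on markers alone, and clusters that met no naming rule keep their number. Excitatory neuron-like cells carried 7 of 8 markers, among them SLC17A7 and SLC17A6, the vesicular glutamate transporters. They made up 20.4%, 20.1%, 22.3% and 19.9% of the cells in AcMor and 8.10%, 6.25%, 3.45% and 4.27% in Vehic. The lowest AcMor tag was more than double the highest Vehic tag, with means of 20.7% ± 1.12 and 5.52% ± 2.09 (SD, n = 4 tags). Neuron-like cells, led by SLC6A5, a glycine transporter of inhibitory neurons, and PAX2, were at 13.5% ± 1.41 in AcMor and 6.23% ± 1.93 in Vehic. Cluster 18, led by LINC01435 and GDA and with TBR1 at 77.4 CPM in AcMor, was at 6.88% ± 1.21 and 2.88% ± 1.14.

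Cluster 3, led by ALDH1L1, LINC02211 and ME1 and unnamed because it met too few markers of any class, made up 15.3%, 18.9%, 18.1% and 18.4% in AcMor and 30.6%, 33.2%, 38.6% and 34.2% in Vehic. The groups did not overlap, with means of 17.7% ± 1.59 and 34.2% ± 3.35. Cluster 2, led by genes such as IL1R1, FBLN2 and BMP6, was at 14.7% ± 1.63 and 20.3% ± 1.89. Cycling-like (10.2% ± 2.11 and 10.9% ± 0.644), mesenchymal-like (4.16% ± 1.73 and 5.23% ± 2.21), ciliated or ependymal-like cells (1.84% ± 0.714 and 3.07% ± 0.597) and clusters 22 (3.89% and 4.06%) and 31 (2.52% and 4.39%) had overlapping groups. Some of these depended on the grouping of the cells. The ciliated or ependymal-like share did not overlap without cells called doublets (1.23% and 2.71%) or with 2DCocu cells clustered alone, where it was far larger (12.3% and 20.3%). That share overlapped at resolution 0.4 (0.136% and 0.154%), at resolution 1.2 and by a count of cells with at least 3 markers (19.6% and 23.5%). The cluster 31 share did not overlap without doublets (2.26% and 4.15%). The share of cells with at least 3 mesenchymal markers did not overlap either (18.7% and 24.3%), while the mesenchymal-like share overlapped in the other groupings.

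These 5 separations reached the smallest two-sided exact permutation p that 4 tags against 4 allow, 0.0286, and an adjusted p of 0.0571 over the 10 categories, so none passed 0.05. They are not independent, because the shares of a tag are parts of the same whole. Gain of some categories and loss of others cannot be told apart from shares. The highest mitochondrial share of any deposited cell was 10%. The median of that share in cluster 3 was 6.07% to 6.75% in the AcMor tags and 1.45% to 3.29% in the Vehic tags. The part of any removal of cells by mitochondrial share before deposit was not tested. After removal of cells called doublets 7 of the 10 had groups that did not overlap, again at an exact p of 0.0286 each. With more categories at that p the adjusted p became 0.0408, so these 7 passed. A test of cell numbers with edgeR, added after the exact test had missed the threshold, passed 6: the excitatory neuron-like (edgeR adjusted p = 4.26e-07), cluster 3 (4.03e-05), neuron-like (0.000113), cluster 18 (0.00181), cluster 2 and cluster 31 (0.0121 each). Other groupings of the cells gave 4 or 5 categories. Adjusted over these alone, 3 passed with 2DCocu cells clustered alone (excitatory neuron-like, neuron-like and ciliated or ependymal-like), at 0.0476 each. With cells counted by markers 3 passed as well (excitatory neuron-like, neuron-like and mesenchymal-like), also at 0.0476. None passed at resolution 0.4 (0.0714) or 1.2 (0.114), while no category of so few could pass an adjustment over 10. A count with no clustering, of cells with at least 3 excitatory markers, gave 16.8% in AcMor and 5.27% in Vehic. As TBR1, NEUROD6 and NEUROD2 are among these markers and were called higher over all cells, this count is not independent of those calls. AcCoc, the third treatment of 2DCocu, held 25.6% ± 3.08 excitatory neuron-like cells and 16.9% ± 2.46 in cluster 3.

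**Figure D2:**
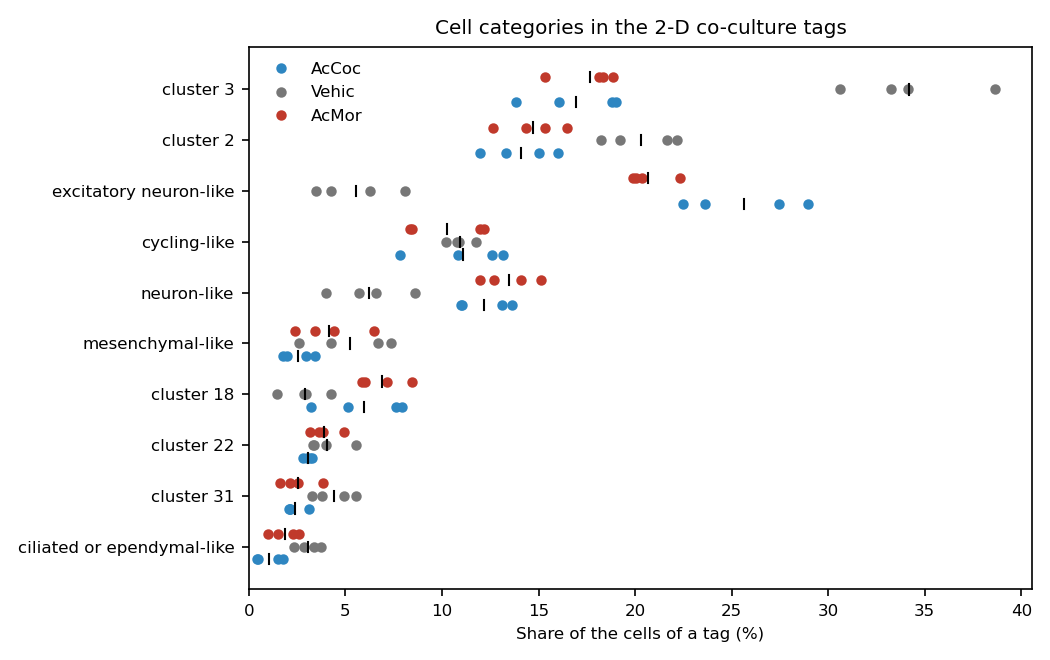
Share of the cells of a culture tag, in percent, that fell into each of the 10 categories, with 1 point per tag and a black bar at the mean of 4 tags for AcMor (red), Vehic (grey) and AcCoc (blue). Cluster 3 lies at 15.3% to 18.9% in AcMor and 30.6% to 38.6% in Vehic, and excitatory neuron-like cells at 19.9% to 22.3% and 3.45% to 8.10%.

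The summed levels of the marker lists were compared beside these shares. The 8 excitatory markers summed to 168 to 196 CPM in AcMor and 93.9 to 118 in Vehic, the 8 GABAergic markers to 64.0 to 82.2 and 35.7 to 58.9, and the 5 intermediate progenitor markers to 19.1 to 26.2 and 14.7 to 18.2. The excitatory and GABAergic sums include called genes (TBR1, NEUROD6, NEUROD2 and GAD2), and no category compared was named from the GABAergic or intermediate progenitor list. The 8 neuron markers overlapped, at 2412 to 2858 and 1683 to 2447 CPM. None of the markers on these lists was at 0. Astrocyte markers (331 to 496 and 363 to 486 CPM), progenitor markers (303 to 397 and 295 to 387) and mesenchymal markers (668 to 1804 and 939 to 1719) overlapped. The 7 neural crest or Schwann markers did not overlap, at 12.8 to 13.4 and 9.11 to 11.9 CPM, and their part in the results was not tested. Microglia and pluripotent markers, each with 1 marker at 0, summed to 7.84 to 14.5 and 9.64 to 13.7 CPM and to 1.96 to 3.39 and 3.09 to 5.58 CPM.

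To hold the mix of cells fixed, levels of 91 genes were averaged with the same weights over 8 clusters that hold 89.1% of the cells. TBR1 then stood at 32.7, 30.9, 32.4 and 35.4 CPM in AcMor and at 25.5, 26.0, 19.1 and 18.3 CPM in Vehic. Its groups still did not overlap, and the log2 ratio went from 1.53 over all cells to 0.56. NEUROD6 went from 1.45 to 0.70 and GRIA2 from 1.06 to 0.38, while DCX went from 0.71 to 0.02, NRN1 from 0.96 to 0.07 and LHX2 from 0.57 to -0.05. Other genes kept most of the ratio: VGF went from 1.45 to 1.29, CYTOR from -1.44 to -1.15 and CREM from -0.41 to -0.40. Falls differed in this as rises did. ALDH1L1 went from -0.78 to -0.23, NTN1 from -0.77 to -0.29 and ME1 from -0.73 to -0.28, while COL5A3 went from -0.82 to -0.74. By two-sided exact permutation none of the 91 genes passed 0.05 at this mix, with a smallest adjusted p of 0.0839. That test cannot give an unadjusted p below 0.0286, however far apart the groups are. Whether a gene passed after adjustment over the 91 thus depended on how many other genes in the set reached that floor. The lack of passing genes is therefore not read as a lack of changes at a fixed mix. The groups at this mix did not overlap in 31 of the 91 genes and in 727 (3.46%) of the 21032 genes tested. Most of the 91 were chosen by their values over all cells of these tags, so nothing about them as a group is read from the higher share.

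**Figure D3:**
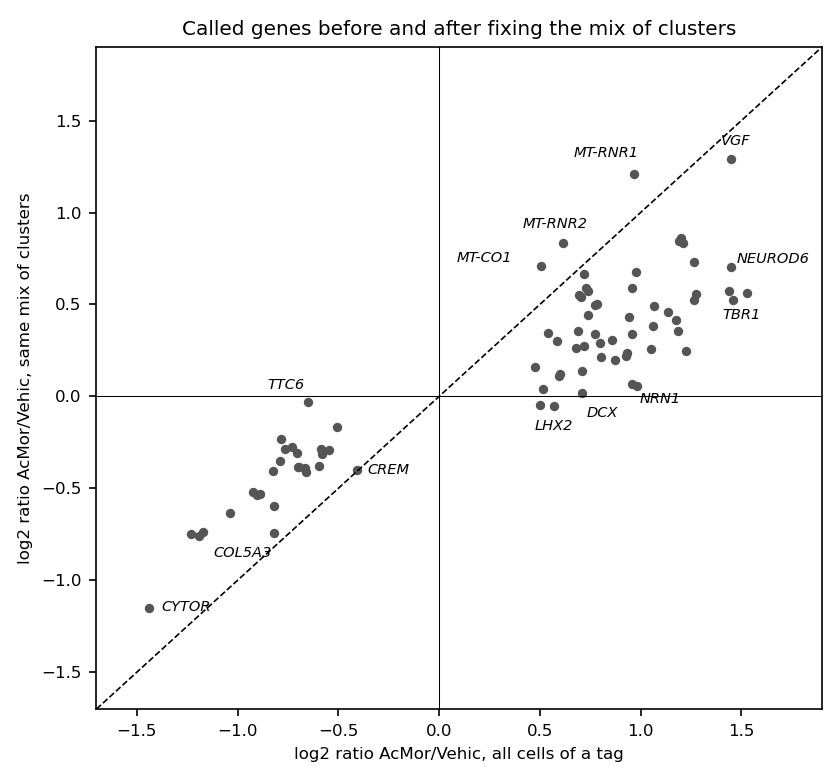
Log2 ratio of AcMor to Vehic over all cells of a tag (x axis) against the ratio with the same mix of 8 clusters (y axis), with 1 point per gene named among the called genes and a dashed line where they are equal. TBR1 lies below the line at 1.53 and 0.56 and DCX near 0 at 0.71 and 0.02, while VGF (1.45 and 1.29), CREM (-0.41 and -0.40) and MT-RNR1 (0.97 and 1.21) lie near or beyond it.

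Within categories, 5 had at least 20 cells in each of the 8 tags, and 1 of them gave more than a few called genes. In excitatory neuron-like cells, 638 in AcMor and 222 in Vehic with no fewer than 26 in a tag, 74 of 11579 genes (0.639%) were called, 58 higher (0.501%) and 16 lower (0.138%), and in 68 the groups did not overlap, as they also did not in 6.33% of all genes tested there. Of the 74, 19 were also among the 205, which were counted on the same cells. The count was 32 without AcMor 2 and 48 without Vehic 4, from 52 to 104 without each of the other tags, and 17 (2 higher, 15 lower) with 2DCocu cells clustered alone. Nearly all of these cells lay in cluster 1 in both groups. Their median count per cell was 8689 in AcMor and 6393 in Vehic, and the part of depth in these calls was not tested.

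Of the genes called in this category, NR3C2, the mineralocorticoid receptor (chromosome 4, 148078762 to 148444698), stood at 420, 488, 592 and 308 CPM in AcMor and at 194, 175, 72.6 and 205 CPM in Vehic. The groups did not overlap and the log2 fold change was 1.42 (SE 0.213, adjusted p = 0.0034 by edgeR), but NR3C2 is among the 10 genes that mark cluster 1 by fold, and it was not called with 2DCocu cells clustered alone (adjusted p = 0.201). PTPRN, a protein of dense core vesicles, NPAS2, a partner of the circadian clock, and PTPRE, a phosphatase, had log2 fold changes of 1.87, 1.85 and 1.45, with at least 1 Vehic tag at 0 for PTPRN and NPAS2. With 2DCocu cells clustered alone NPAS2 turned to -0.32 (adjusted p = 0.666), and PTPRN went to 0.032 (0.998) and PTPRE to 0.42 (0.715). With 1 tag left out, PTPRN was called only without Vehic 4 and otherwise had adjusted p from 0.0686 to 0.147, PTPRE was called only without AcMor 4 (otherwise 0.0737 to 0.138), and NPAS2 lost its call without AcMor 2 (0.0893) and without Vehic 4 (0.0522).

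The largest named fall in the same cells was that of PAX6. Of 12 tested genes of the radial glia and astrocyte list, 1 was called higher and 1 lower there. Over all genes 0.501% were called higher and 0.138% lower, so this is not read as a result about the list. PAX6, which maintains cortical progenitors (chromosome 11, 31784779 to 31818062), stood at 25.7, 41.0, 44.0 and 44.1 CPM in AcMor and at 96.2, 104, 87.1 and 66.7 CPM in Vehic. The groups did not overlap (log2 fold change -1.20 with an SE of 0.238, adjusted p = 0.0111 by edgeR), and PAX6 lost its call without Vehic 1 (adjusted p = 0.0513), without Vehic 2 (0.0703) and with 2DCocu cells clustered alone (0.55). ZEB1, a repressor that delays neuronal differentiation, stood at 315, 238, 257 and 354 CPM in AcMor and at 541, 606, 508 and 671 CPM in Vehic, and ZNF423, a zinc finger factor of neural precursors, at 223, 239, 241 and 205 CPM and at 338, 359, 625 and 471 CPM. Both had groups that did not overlap and were called without each tag in turn and with 2DCocu cells clustered alone. KLHDC8A and HDAC9, a histone deacetylase, had log2 fold changes of -1.04 and -0.84. Neither was called with 2DCocu cells clustered alone (-0.42 with adjusted p = 0.752, and -0.65 with adjusted p = 0.241). KLHDC8A lost its call without Vehic 1 (adjusted p = 0.0536), and HDAC9 without AcMor 1 or 2 (0.0634 and 0.0965) and without Vehic 2, 3 or 4 (0.176, 0.0528 and 0.0734).

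Among list members in these cells, where 0.501% of all genes were called higher, 3 of 21 glutamate receptor genes rose and 0 fell (median log2 fold change 0.40), among them GRIA2 from 603 ± 87.6 to 902 ± 106 CPM (log2 fold change 0.58) and GRIK2 (0.57). Of 40 channel genes 3 rose and 0 fell, with CACNA2D3 at 1.27 and CACNA1E at 0.61. ADCY8 rose from 64.2 ± 28.6 to 148 ± 36.3 CPM (log2 fold change 1.12) and SYT4 had a log2 fold change of 1.40. With 2DCocu cells clustered alone none of these 6 genes was called: GRIA2 was at 0.47 (adjusted p = 0.177), GRIK2 turned to -0.042 (0.961), and CACNA2D3, CACNA1E, ADCY8 and SYT4 were at 0.20, 0.24, 0.21 and 0.49 (0.581 to 0.731). Each also lost its call without at least 1 tag, ADCY8 without Vehic 2 (0.0679), CACNA2D3 without Vehic 3 (0.0579), GRIA2 without AcMor 2 or 4 or Vehic 3 (0.0552 to 0.109), GRIK2 without AcMor 1 or 2 or Vehic 4 (0.0553 to 0.0965), CACNA1E without AcMor 2, 3 or 4 or Vehic 2 or 4 (0.0879 to 0.123), and SYT4 without AcMor 2 or 4 or Vehic 1, 3 or 4 (0.0508 to 0.0734). CACNA1E was not called without cells called doublets either (0.0669). TBR1 was at 161 ± 22.9 against 105 ± 27.6 CPM and was not called (log2 fold change 0.53, edgeR adjusted p = 0.209), nor was NEUROD6 (0.73, adjusted p = 0.204). OPRM1 was at 6.49 ± 1.75 against 5.51 ± 4.24 CPM here. Over pooled cells OPRM1 was at 6.91 CPM in AcMor and 12.9 in Vehic in neuron-like cells, where 5.05% and 6.56% of cells had a count, and at 8.34 and 7.34 CPM in cluster 18, where 9.27% and 6.14% had one. These pooled values give no spread between tags, and no gene was called by edgeR in neuron-like cells. Cluster 22, mostly cells called doublets, had the highest shares, 9.84% and 13.2%. In mesenchymal-like cells, which are not known for the receptor, 1.99% and 1.04% had a count, at median depths of 23092 and 11509 against 10353 and 8837 in neuron-like cells.

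**Figure D4:**
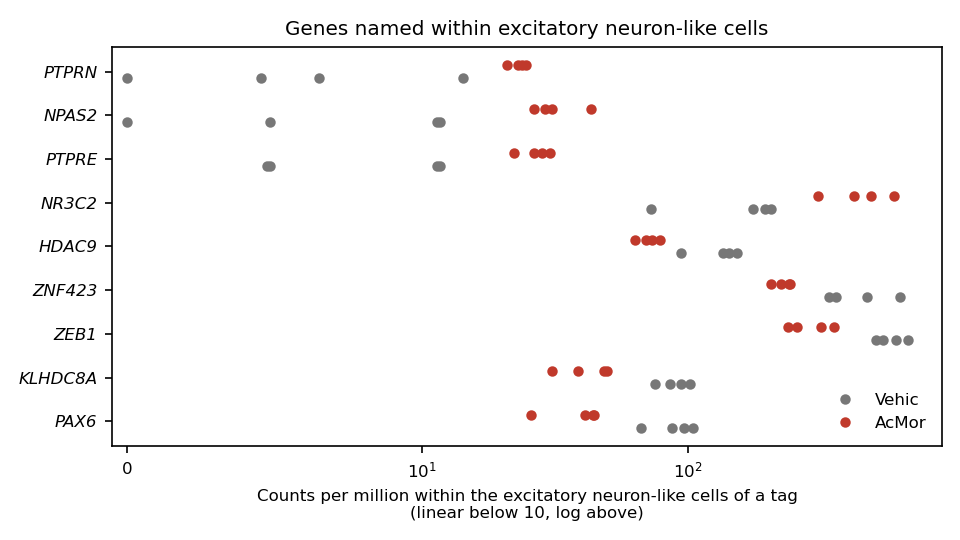
CPM within the excitatory neuron-like cells of a tag, on an axis linear below 10 and logarithmic above, for genes among the 5 largest rises and the 5 largest falls called there, with 1 point per tag (AcMor red, Vehic grey). These genes were chosen for groups that do not overlap, and PTPRN and NPAS2 each have 1 Vehic tag at 0.

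The other categories gave few called genes or none. In cluster 2, 1 of 14057 genes (0.00711%) was called, and in cycling-like cells 2 of 11509 (0.0174%). In cluster 3, 0 of 14815 genes (0%) were called by edgeR, with 723 at an unadjusted p under 0.05 and 6 called by DESeq2. In neuron-like cells 0 of 10632 (0%) were called by edgeR, with 626 at an unadjusted p under 0.05 and 3 called by DESeq2.

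The called genes of cluster 2 and of cycling-like cells were mitochondrial. MT-RNR2, the large ribosomal RNA of mitochondria (1671 to 3229 on the mitochondrial genome), stood at 16970, 16205, 15232 and 20050 CPM in cycling-like AcMor cells and at 8531, 8160, 7174 and 7053 CPM in Vehic, without overlap (log2 fold change 1.15 with an SE of 0.128, adjusted p = 3.73e-05 by edgeR). MT-CO1, a subunit of cytochrome c oxidase, was at 1163 ± 227 against 572 ± 71.4 CPM in the same cells (log2 fold change 1.02, edgeR adjusted p = 0.00169), and was not called with 2DCocu cells clustered alone (adjusted p = 0.291). In cluster 2 MT-RNR2 was at 21381 ± 2279 against 11572 ± 1376 CPM (log2 fold change 0.89, edgeR adjusted p = 0.0161), and lost its call without AcMor 1 or 2 (adjusted p of 0.0535 and 0.166) and without Vehic 2, 3 or 4 (0.06, 0.0741 and 0.0551). In excitatory neuron-like cells MT-RNR2 was called as well, at 7466 ± 575 against 3598 ± 1162 CPM (log2 fold change 1.05).

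Over all cells of a tag, MT-RNR1, the small ribosomal RNA of mitochondria (648 to 1601), stood at 20460, 25945, 23711 and 25958 CPM in AcMor and at 14217, 16751, 7929 and 8288 CPM in Vehic. Vehic 3 and 4 were the lowest tags, and the log2 fold change was 1.03 (SE 0.193, adjusted p = 0.024 by edgeR). MT-RNR1 lost its call without any 1 of the AcMor tags (adjusted p from 0.0565 to 0.0662) and without Vehic 3 (0.0705). With the same mix of clusters its log2 ratio was 1.21 against 0.97 over all cells, and that of MT-RNR2 was 0.84 against 0.62. Of 13 mitochondrially encoded protein genes 1 rose (MT-CO1, with overlapping groups), at a median log2 fold change of 0.30, where 0.685% of all genes were called higher. One call in a list of this size is not read as a result about the list. The mitochondrial share also separated AcMor from Vehic within cluster 3 (6.07% to 6.75% against 1.45% to 3.29%) and cycling-like cells (4.00% to 4.83% against 0.513% to 1.78%), and overlapped in excitatory neuron-like cells (1.14% to 1.56% against 0.426% to 1.19%). Its part in the other called genes was not tested.

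AcCoc, whose name fits cocaine, gave a contrast that leaves out the Vehic tags, although they entered the same fit, its filter and its estimate of the spread. Of 21032 genes 0 (0%), and so 0 of the 205, differed between AcMor and AcCoc at an adjusted p of 0.05 by edgeR. At an unadjusted p under 0.05 there were 913. TBR1 was at 39.2 ± 12 CPM in AcCoc, and AcMor minus AcCoc gave a log2 difference of -0.14 (SE 0.194, adjusted p = 0.999 by edgeR). CYTOR gave -0.17 (SE 0.223) and CREM -0.24 (SE 0.0844). AcMor and AcCoc were both compared with the same Vehic tags, where TBR1 had log2 fold changes of 1.56 and 1.705, CYTOR of -1.35 and -1.18, MT-RNR1 of 1.03 and 1.00, and CREM of -0.37 and -0.13. What is common to both drugs and what is particular to these 4 Vehic tags cannot be told apart from these values.

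Other arrangements carried AcMor and Vehic tags of their own. In 3DFusi, with 3 tags a group, 0 of 23023 genes (0%) were called by edgeR, 319 had an unadjusted p under 0.05, and DESeq2 called 1. Of the 205 genes 204 were tested there, 102 with the same sign and 102 with the opposite one. TBR1 stood at 15.8, 16.8 and 15.1 CPM in AcMor and at 39.8, 9.35 and 14.3 CPM in Vehic of 3DFusi, with overlap. The difference of the AcMor effect between 2DCocu and 3DFusi was tested itself: 0 of 23084 genes (0%) passed by edgeR, with 1178 at an unadjusted p under 0.05 and 13 called by DESeq2. For TBR1 that difference was 2.01 (SE 0.503, adjusted p = 0.804 by edgeR), and for LHX1, which was at -2.25 in 3DFusi, it was 3.47 (SE 0.585, adjusted p = 0.257).

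In 2DMono, with 2 tags a group and examined after the other results were known, 0 of 19416 genes (0%) were called by edgeR and 1247 had an unadjusted p under 0.05. Of 203 of the genes tested there 186 had the same sign as in 2DCocu, while 9458 of all 19416 genes were above zero. The share of all genes with the same sign in both arrangements was not computed, so nothing is drawn from the 186. The Vehic tags 1 and 2 of 2DMono were unlike, with 1959 and 317 cells and median mitochondrial shares of 4.19% and 0.717%. The median log2 fold change was 0.38 for the genes higher and -0.42 for the genes lower in 2DCocu. TBR1 stood at 68.5 and 51.0 CPM in AcMor and at 50.5 and 22.3 CPM in Vehic (log2 fold change 0.68, SE 0.338). PCDH8 was at 9.42 and 14.2 CPM against 5.40 and 1.72, and RBM47, an RNA-binding protein of epithelia, at 25.8 and 24.1 CPM against 68.1 and 54.3. MT-RNR1 was at -0.29 in 2DMono and -0.03 in 3DFusi, without a call in either.

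**Figure D5:**
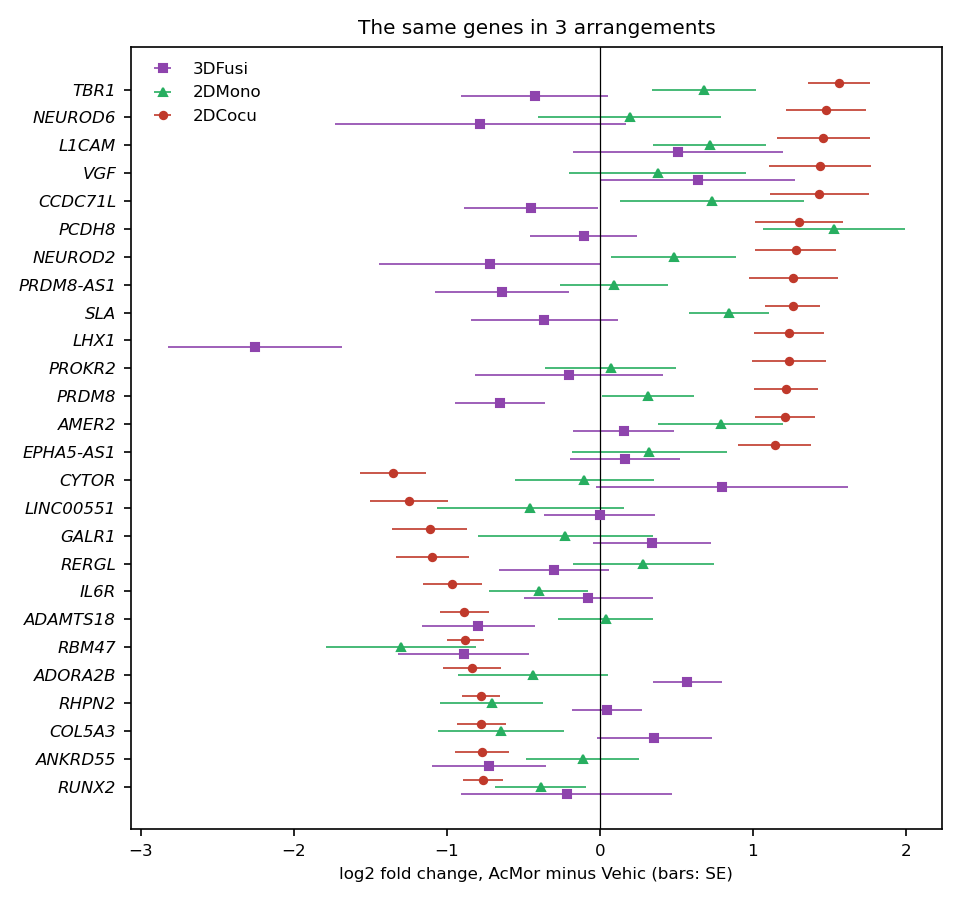
Log2 fold change of AcMor minus Vehic with its standard error for genes among the 27 largest rises and falls, in 2DCocu (red circles, 4 tags a group), 2DMono (green triangles, 2 tags a group) and 3DFusi (purple squares, 3 tags a group). The genes were chosen by their 2DCocu values, none was called in 2DMono or 3DFusi, and TBR1 lies at 1.56, 0.68 and -0.43.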

How the data were processed

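Expected counts per gene and cell were deposited by the authors as 1 matrix of 60286 genes and 43693 cells. Salmon 1.7.0, alevin, Seurat 4.1.1 and the build hg38 are named in the submitters' processing notes. For the annotation and the use of strand: not given in the sources used here. Of the deposited entries 54.32% were whole numbers. Samples were 8 sublibraries of 1 pool, so groups were taken from the culture tags in the cell names. The labels do not say how 2-D cultures were taken apart.

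The members, gene lists and tests were chosen with earlier results of these data known. Counts were summed per tag, rounded, filtered with filterByExpr, scaled by TMM and tested with edgeR 4.0.16 in R 4.3.3 (glmQLFit with the robust option, Benjamini-Hochberg threshold 0.05), with the 12 tags of 2DCocu in 1 fit. CPM use the TMM-scaled total of a tag. All cells were clustered by Leiden (leidenalg 0.10.2, scanpy 1.11.5, resolution 0.8, seed 0) without the 205 called genes. A name needed at least 3 markers and 40% of a list, each in 10% of cells and 2-fold above other cells (pseudocount 1 CPM). Leaving out the called genes, the naming rule and the doublet method were chosen after the data had been seen. Doublets were scored with 100 neighbours against simulated pairs, after a first caller had marked almost no cell. The threshold of 0.5918 called 4353 cells (9.96%), 548 of them in the 8 tags, and these were kept except as an alternative. A cell counted as having a gene from an entry of 0.5 upwards.

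Named were the 15 largest rises and 12 largest falls among called genes with groups that do not overlap and a mean of at least 1 CPM in a group, every called member of a list, all opioid genes, and the 5 largest rises and falls within a category. Some genes that this rule selects are not reported here. Shares and fixed-mix levels were tested by two-sided exact permutation of 70 arrangements. The 8 tags differed from one another by more than counting noise, with chi-square per degree of freedom from 6.11 to 60.7. The edgeR code was tested on simulated data. Gene positions are from GENCODE v29 on GRCh38. Alternatives used DESeq2 1.42.0, other scaling, filters and cells, and each tag left out. The edgeR test of cell numbers, the 2DMono fit, the replicate block in 3DFusi, the adjustment of shares over fewer categories, leaving out Vehic 3 and 4 together and AcMor against AcCoc were added after seeing the data.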

Additional observations from a re-analysis of the deposited data

Results flagged for a closer look

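Of 200 sets of 4 tags examined, 5 had 1 tag far from the other 3, by Dixon's test at the 95% level, where chance flags about 1 in 20 sets. NEUROD6 was at 2.30 CPM in Vehic 3, the lowest Vehic tag, against 6.37 to 6.73 in the others. ADORA2B was at 5.86 CPM in AcMor 3, the lowest AcMor tag. SCN2A was at 55.0 CPM in AcMor 1, the highest AcMor tag. EPHB6 was at 16.5 CPM in AcMor 3, the highest AcMor tag. The median mitochondrial share was 3.48% in AcMor 2, the highest AcMor tag, against 2.68% to 2.80% in the others.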

How the results depend on the processing

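The count of 205 genes became 345 with the 8 AcMor and Vehic tags only, 697 with DESeq2, 391 with no filter, 715 without cells called doublets, 889 without cells above 50000 counts, 44 in sublibraries 1 to 4, 40 with the replicate block, 0 in 1 fit over all 4 arrangements (1481 at an unadjusted p under 0.05) and 6 without Vehic 3 and 4 together, and it ranged from 27 to 283 with 1 tag left out. It was 231 with upper quartile scaling, 191 with a minimum of 1 CPM, 193 without the robust option and 248 in sublibraries 5 to 8. None of the 27 largest changes turned its sign in these fits. They were chosen for groups that do not overlap, so their signs could hardly turn and nothing is read from this. With the 8 tags only and in each set of sublibraries 26 of the 27 had a value, all in the same direction. Same-numbered AcMor and Vehic tags deviated together with correlations of -0.085, 0.127, -0.066 and 0.076, so that pairing by number was not shown, and the labels do not say what the numbers stand for. The replicate block gave 0 genes in cluster 2, 0 in cluster 3, 10 in cycling-like cells, 104 in excitatory neuron-like cells, 0 in neuron-like cells and 0 in 3DFusi.

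Within excitatory neuron-like cells DESeq2 called 210 genes, clustering 2DCocu alone left 17, and leaving out 1 tag gave 32 to 104. Cycling-like cells had 26 with DESeq2, 10 without doublets, 3 with 2DCocu clustered alone and 2 to 7 with 1 tag left out. Cluster 2 had 4 with DESeq2 and 0 to 3 with 1 tag left out, cluster 3 had 6 with DESeq2, 1 without doublets and 0 to 1 with 1 tag left out, and neuron-like cells had 3 with DESeq2. DESeq2 called 1 gene in 3DFusi and 13 for the difference between 2DCocu and 3DFusi, which gave 0 to 1 with a 3DFusi tag left out (2DCocu tags were not left out there), and 2DMono gave 0 to 3. Categories past 0.05 numbered 7 without doublets and 6 with edgeR on cell numbers. Without doublets the differences past the threshold, in percentage points, were 16.6 (excitatory neuron-like), 7.83 (neuron-like), 4.29 (cluster 18), -17.7 (cluster 3), -5.98 (cluster 2), -1.88 (cluster 31) and -1.48 (ciliated or ependymal-like). Adjusted over the 5 categories compared, 3 passed with 2DCocu clustered alone and 3 with cells counted by markers.

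Signs turned for the cluster 22 share (0.0667 points without AcMor 3, 0.334 without Vehic 4, from -0.509 to 0.334 with 1 tag left out), the cycling-like share (0.262 at resolution 0.4), OPRM1 (-0.00095 with library size alone, -0.093 in sublibraries 1 to 4, -0.0097 without AcMor 4, -0.12 without Vehic 1, -0.35 with a fixed mix, from -0.12 to 0.165 with 1 tag left out), PENK (0.0727 without AcMor 3, 0.02 without Vehic 2, from -0.759 to 0.0727 with 1 tag left out), LHX2 (-0.052) and ELAVL2 (-0.047) with a fixed mix, and NPAS2 (-0.32) and GRIK2 (-0.042) in excitatory neuron-like cells with 2DCocu clustered alone. The causes were not tested. With 4 tags against 4, no exact permutation p can be below 0.0286, and some Vehic tags held only 26 excitatory neuron-like cells or few more.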
